A study of Mus musculus with 12 samples.

Results

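The genes described here encode 36 enzymes and partners of mucin O-glycosylation, the sugar chains built on serine and threonine residues of mucins in the Golgi. They were chosen by gene symbol, with earlier results of these data known, and matched to GENCODE M21, giving 36 of the 53715 gene identifiers in the count tables. By step, 13 start the chain, 6 form and branch its core, 5 extend it and 12 cap it with sialic acid, fucose or sulfate.

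O-glycosylation begins when a GALNT enzyme transfers N-acetylgalactosamine (GalNAc) to the mucin protein. The core 1 enzyme C1GALT1 then adds galactose, GCNT enzymes add an N-acetylglucosamine branch, and B3GNT and B4GALT enzymes lengthen the branches by turns. Sialyltransferases and fucosyltransferases end the chains, which give mucus its charge and its blood group and Lewis antigens. Pancreatic ductal adenocarcinoma is known for mucins with short or heavily sialylated chains, and SPDEF belongs to the ETS family of transcription factors and acts in goblet and other mucus-producing cells.

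RNA was measured in organoids of mouse pancreatic ductal adenocarcinoma grown in Matrigel, from 2 lines named mT6 and mT69a. All libraries carry strain C57/Bl6 and the genotype KrasLSLG12D/+; Trp53LSLR172H/LOH; Pdx1-Cre, so the tumour alleles are shared by every group and were recombined in cells where the Pdx1 promoter drove Cre. In each line the control was a Rosa26-knockout clone carrying the empty vector. The knockout was a clone deleted for Spdef, carrying the same empty vector, and the remaining group was deleted for Spdef and carried a vector labelled SPDEF-OE. Each of the 6 groups had 2 libraries, 12 in all. The labels give 1 knockout clone name in each line, so loss of Spdef and the clone cannot be told apart. No label says whether the libraries of a group were separate cultures, and p-values then cover the spread between these libraries alone.

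The targeted gene was read first. Counts of Spdef in mT6 were 30 and 29 for control, 0 and 2 for knockout and 1 and 0 for the SPDEF-OE label. In mT69a they were 2 and 4, then 2 and 0, then 2 and 0. Mouse Spdef was therefore low in the mT69a controls already, and it was not raised in the 4 libraries labelled SPDEF-OE, so every direction that involves them rests on the label. Libraries held 9094295 to 28903831 counts. The mitochondrial share was 12.7% to 15.5% of counts in libraries numbered 1 and 18.6% to 27.1% in those numbered 2. Summed levels of 8 ductal markers were 3824 to 6956 CPM (counts scaled to library size), and none was at 0. Other cell types' markers summed to at most 12.5 CPM (immune, with Adgre1 and Cd3e at 0), 4.49 CPM (acinar, with Ptf1a and Cpa1 among 4 of 8 at 0) and below 1 CPM for endothelial, fibroblast and endocrine markers. Cd68 made up most of the immune sum in each library (19 to 215 counts). Of the acinar markers, Bhlha15 had 59 and 97 counts in the mT6 controls, 14 and 14 in the mT6 knockout and 1 to 15 elsewhere.

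Of the 36 members, 29 had enough counts to be tested: 10 of the 13 starting enzymes, 5 of 6 in core formation and branching, 5 of 5 in extension and 9 of 12 in capping. The other 7 (Galnt5, Galnt14, Galnt16, B3gnt6, St6galnac1, St6galnac4 and St6galnac6) had between 1 and 57 counts summed over all 12 libraries. Among these are B3gnt6, which makes core 3, and St6galnac1, which makes the sialyl-Tn antigen. Per transcript length (TPM), the most abundant members by the mean of the 12 libraries were Galnt7 (53.4 TPM), C1galt1 (42.1 TPM), B3gnt3 (72.8 TPM) and St3gal6 (151.5 TPM), 1 for each step. Fut2, a fucosyltransferase that makes the H antigen, came after St3gal6 in the capping step at 84.0 TPM.

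Levels were compared with edgeR's quasi-likelihood test over 14473 genes, with Benjamini-Hochberg adjusted p below 0.05 as the threshold. Fold changes are log2 values with standard errors. The clearest pattern was between the libraries labelled SPDEF-OE and the knockout. As the members were chosen with earlier results of these data known, a share above that of all genes is a description. It is not independent support. Averaged over the lines, 10 of 29 members were higher and 1 was lower, against 4.46% of all genes higher, 3.32% lower and 7.77% called in either direction. The raised members were 5 starting enzymes, 2 branching enzymes and 3 sialyltransferases. Among them Galnt18 had 0 counts, and St6gal1 at most 0.229 CPM, outside the SPDEF-OE label. Both met the count filter only through the libraries where they were high. Their tests could hardly have come out otherwise, so they add no support to this count or to the median. No extension enzyme was higher and B3gnt7 was lower. In bulk RNA, fewer cells of a type and less RNA per cell cannot be told apart. The median log2 fold change of the 29 members was 0.44, beside -0.02 over all genes, and 24 of 29 were above 0. With the replicate number as a block, 16 members were higher and 2 lower (15.8% of all genes called). This added Galnt3, Galnt4, Galnt10, St3gal6, Fut2 and B4galnt3 to those higher and Chst4 to those lower, with adjusted p from 0.0013 to 0.0384.

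Knockout and control differed in fewer members. Averaged over the lines, 2 were higher and 2 lower of 29, beside 3.3% of all genes higher, 2.3% lower and 5.6% called in either direction. The median of the 29 members was 0.00. Gcnt3 and Galnt6 were lower, and C1galt1 and St3gal6 were higher. With the block, 5 were higher and 5 lower (15.0% of all genes called), which added St3gal1, St3gal2 and Galnt12 to those higher and B4galt4, B4galnt3 and Fut2 to those lower (adjusted p from 0.00136 to 0.0477). The lines went different ways: in mT6 1 member was higher and 2 were lower, beside 1.28% and 1.96% of all genes (3.23% in either direction), and in mT69a 3 were higher and 4 lower, beside 4.88% and 3.71% (8.6%). With the block 3 were higher and 3 lower in mT6 (12.5% of all genes), adding St3gal1, Gcnt4 and Galnt12 (adjusted p from 0.0022 to 0.0223). In mT69a 5 were higher and 8 lower (16.0%), adding St3gal2, Fut4, Galnt1, St3gal4, Fut2 and Gcnt4 (adjusted p from 0.00089 to 0.0267). The change itself differed between lines for 8 of 29 members, beside 6.62% of all genes (4.04% more positive in mT69a, 2.58% more negative). Those 8 were B3gnt7, Fut4 and Galnt12, whose change was more positive in mT69a, and Galnt6, B4galt4, B4galnt3, Gcnt4 and Gcnt3, whose change was more negative there. The block added Galnt1, St3gal1 and St3gal4 to the latter (adjusted p from 0.0058 to 0.0409; 15.2% of all genes).

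**Figure D1:**
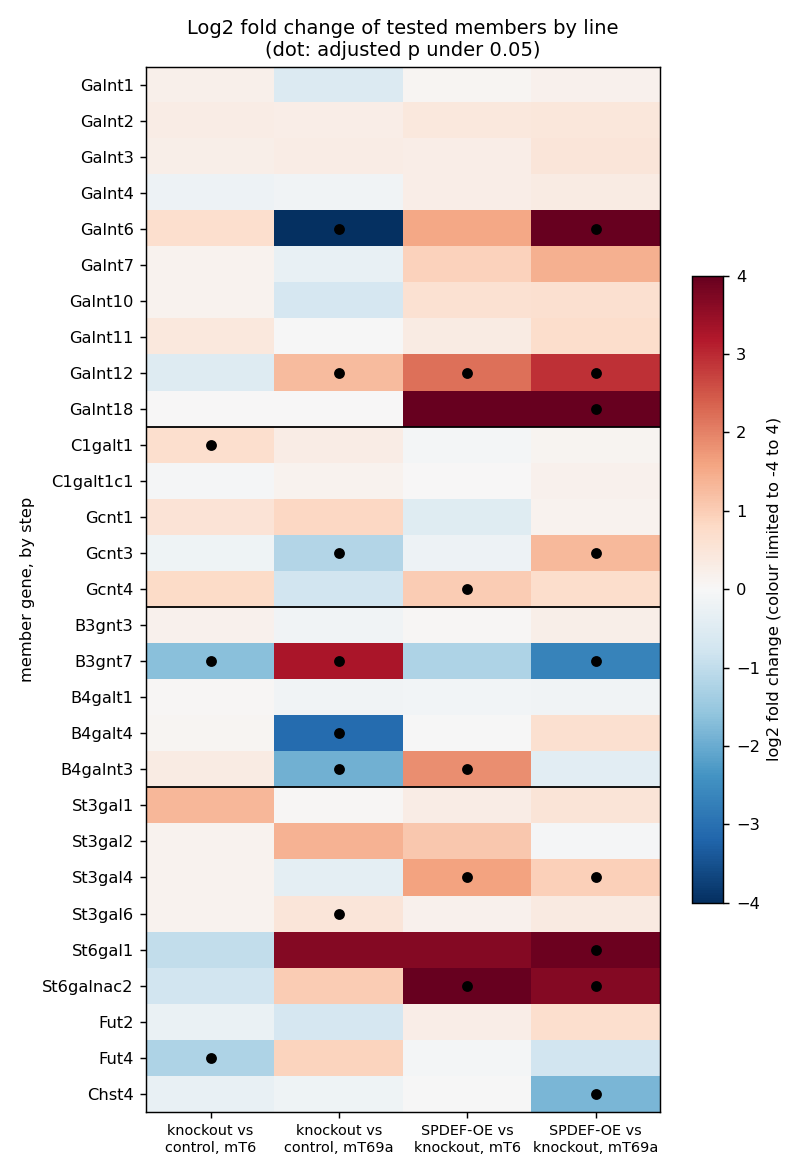
Log2 fold change of the 29 tested members (rows, ordered by step and divided by lines) in each tumour line, for knockout against control and for libraries labelled SPDEF-OE against knockout, with a dot where the adjusted p was below 0.05. Most starting and capping enzymes are red in both columns on the right, while the columns on the left differ in sign for B3gnt7 and in strength for B4galt4; fitted values of Galnt6 in mT69a, Galnt18 and St6gal1 rest on groups at or near 0 counts.

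Within lines, the libraries labelled SPDEF-OE were higher than the knockout for 5 members and lower for none in mT6, beside 1.55% of all genes higher and 1.14% lower (2.69% in all). In mT69a they were higher for 7 and lower for 2, beside 2.57% and 1.68% (4.25%). With the block, 9 were higher in mT6 (7.29% of all genes called), adding Galnt6, Galnt7, Galnt18 and St6gal1 (adjusted p from 0.0103 to 0.0368). In mT69a 13 were higher and 2 lower with it (10.6%), adding Galnt3, Galnt7, Galnt11, Gcnt4, St3gal6 and Fut2 (adjusted p from 0.00047 to 0.0256). St3gal4, Galnt12 and St6galnac2 passed in each line. Galnt18 and St6gal1 are part of the mT69a count and of the blocked mT6 count, and met the count filter only through the SPDEF-OE libraries. Without the block, no member's change differed between lines by edgeR (0 of 29 at adjusted p below 0.05, 7 at an unadjusted p below 0.05, 0.0138% of all genes called). DESeq2 called 1 member and the blocked fit 2, Gcnt3 (difference 1.51, adjusted p = 0.000663) and B4galnt3 (difference -2.33, adjusted p = 0.0367), beside 0.38% of all genes.

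Compared with control and averaged over the lines, the libraries labelled SPDEF-OE were higher in 14 members and lower in 1, beside 8.04% of all genes higher, 6.41% lower and 14.5% called in either direction. By step, 6 starting enzymes, 2 core enzymes and 6 capping enzymes were higher, and Chst4 of the capping step was lower. Galnt18 and St6gal1 are among those higher, and here too they met the count filter only through the SPDEF-OE libraries. The block added B4galt4, Fut4 and B3gnt7 to those lower (adjusted p from 0.0022 to 0.0454; 25.4% of all genes). The 3 averaged comparisons share libraries in pairs, so their values for a member are not independent of each other.

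Among the starting enzymes, Galnt12 had the smallest averaged adjusted p for the SPDEF-OE label, against knockout and against control. It acts on mucin peptides in digestive epithelia. It lies on chromosome 4 (47091909 to 47123070, plus strand, GRCm38.p6). Galnt12 had 29.6 and 35.3 CPM in the mT6 controls, 20.9 and 24.8 in the mT6 knockout and 93.95 and 118 in the mT6 libraries labelled SPDEF-OE. In mT69a the same order gave 4.75 and 7.41, then 14.9 and 14.0, then 102 and 117 CPM. All 4 libraries labelled SPDEF-OE lay above all 8 others, although the controls of the lines were far apart. Against knockout the averaged log2 fold change was 2.56 (SE 0.15, adjusted p = 6.3e-06), with 2.21 (SE 0.20) in mT6 and 2.91 (SE 0.21) in mT69a. Against control it was 2.94 (SE 0.15, adjusted p = 2.3e-06). The summed counts were 3.17-fold above control in mT6 (95% counting interval 2.95 to 3.40) and 17.9-fold in mT69a (15.4 to 20.8), comparisons that were not tested within a line. In the knockout Galnt12 rose in mT69a by 1.26 (SE 0.22, adjusted p = 0.0052) and was -0.51 (SE 0.20, adjusted p = 0.22; with the block adjusted p = 0.0223) in mT6. The difference between lines was 1.76 (SE 0.29, adjusted p = 0.0058).

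Galnt12 also took a larger share of the transcripts of the 13 starting enzymes. It made up 7.66% and 8.10% of their summed TPM in the mT6 controls, 4.94% and 5.25% in the mT6 knockout and 16.5% and 15.3% in the mT6 libraries labelled SPDEF-OE. In mT69a the shares were 1.57% and 1.88%, then 4.76% and 4.09%, then 18.5% and 19.7%. The summed TPM of the 13 genes was 205.6 and 204.4 in the mT6 controls, 228.9 and 214.5 in the knockout and 276.5 and 364.4 in the libraries labelled SPDEF-OE. The mT69a sums were 160.4 and 180.2, then 193.2 and 158.8, then 289.4 and 249.4 TPM. Each SPDEF-OE library thus held more transcripts of starting enzymes than any other library of its line. These sums are descriptions without a test.

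**Figure D2:**
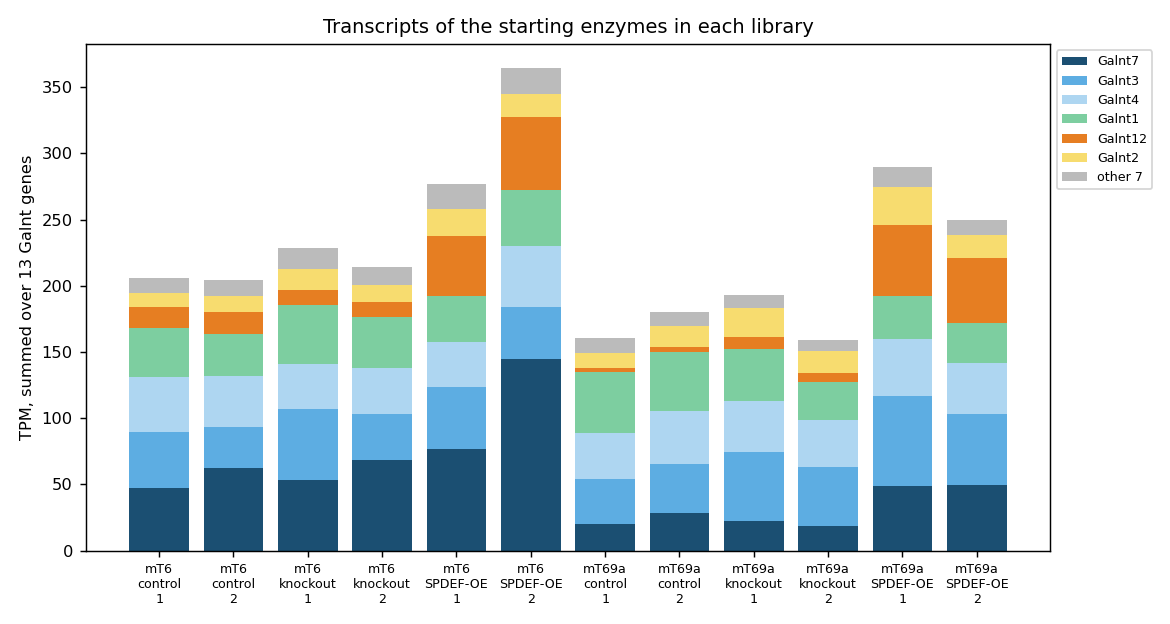
Summed TPM of the 13 Galnt genes in each of the 12 libraries (bars, by line, group and library number), divided by gene with the 7 least abundant pooled. The bars of libraries labelled SPDEF-OE reach 249.4 to 364.4 TPM, and the Galnt12 part (orange) grows from between 1.57% and 8.10% of a bar in controls and knockouts to between 15.3% and 19.7%.

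Galnt7, the most abundant starting enzyme, adds GalNAc next to sites that already carry one. It had 169 and 250.2 CPM in the mT6 controls, 184 and 283 in the mT6 knockout and 299 and 583 in the mT6 libraries labelled SPDEF-OE. In mT69a it had 62.5 and 115, then 69.2 and 76.8, then 172 and 223 CPM. The libraries labelled SPDEF-OE were above both other groups in each line, but their 2 mT6 values were far apart and library 2 was the higher in every group. Averaged over the lines Galnt7 rose by 1.18 against knockout (SE 0.27, adjusted p = 0.031; with the block 0.000108) and by 1.11 against control (SE 0.27, adjusted p = 0.026). The first call was lost in 6 of 12 fits that left out a library, those without the first mT6 knockout library, the second mT6 SPDEF-OE library or any of the 4 mT69a knockout and SPDEF-OE libraries, with adjusted p up to 0.113. The second was lost in 5 (without the first mT6 control, the first mT69a control, the second mT6 SPDEF-OE or either mT69a SPDEF-OE library; up to 0.0860). Within a line Galnt7 passed against knockout with the block only (adjusted p = 0.0103 in mT6 and 0.000469 in mT69a, against 0.36 and 0.086 without it). It was 1.24 lower in the mT69a than in the mT6 controls on the log2 scale (log2 fold change -1.24, SE 0.39, adjusted p = 0.041).

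RefSeq promoter windows are reported for 23 members, each the 250 bases before a RefSeq start on GRCm38.p6. The other members were left out, Galnt1 among them, and are not part of the member count given below. Some windows lay far from the start of the member's main transcript: 79113 bases for Galnt16, 20841 for St6gal1, 8362 for St6galnac6 and 7198 for St6galnac4. The rest lay at most 382 bases from it. They are shown for 3 members that changed. The windows of Galnt7 and B4galt4 hold an ETS-type motif. The window of St3gal4, which rose in both lines, does not. That window lies at the start of the main St3gal4 transcript, and the starts farther upstream, given below, are not covered by it. The motifs searched on both strands were CCGGAT, the form that SPDEF is known to accept, and CCGGAA, the common ETS form. Sequences run 5′ to 3′ on the gene's strand, and capitals mark a match.
Galnt7, chr8:57653056-57653305, minus strand: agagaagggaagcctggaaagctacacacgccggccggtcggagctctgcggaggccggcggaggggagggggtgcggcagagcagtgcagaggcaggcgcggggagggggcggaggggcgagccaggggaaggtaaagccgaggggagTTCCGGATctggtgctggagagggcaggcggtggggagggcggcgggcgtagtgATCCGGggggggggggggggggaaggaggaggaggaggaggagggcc
B4galt4, chr16:38742009-38742258, plus strand: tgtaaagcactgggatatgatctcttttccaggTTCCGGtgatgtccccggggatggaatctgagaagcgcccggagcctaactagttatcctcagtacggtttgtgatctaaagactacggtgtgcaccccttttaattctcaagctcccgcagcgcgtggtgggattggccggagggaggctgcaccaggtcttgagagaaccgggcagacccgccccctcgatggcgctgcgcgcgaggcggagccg
St3gal4, chr9:35116865-35117114, minus strand: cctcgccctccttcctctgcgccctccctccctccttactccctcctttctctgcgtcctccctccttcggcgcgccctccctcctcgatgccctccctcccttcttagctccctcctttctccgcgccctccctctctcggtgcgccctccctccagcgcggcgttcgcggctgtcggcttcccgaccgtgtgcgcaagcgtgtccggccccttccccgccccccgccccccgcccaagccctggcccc
In Galnt7, CCGGAT begins 99 bases before the start and its reverse complement 47 bases before it, and the reverse complement of CCGGAA begins at 101 bases and overlaps the first. In B4galt4 the reverse complement of CCGGAA begins 217 bases before the start. Across 32851 windows of this length, 4.94% held CCGGAT, 12.03% held CCGGAA and 15.6% held either, beside 2 of the 23 members (8.70%). A match is a description of these letters and not of binding.

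Galnt11, Galnt2 and Galnt3 are starting enzymes of moderate to high level. Galnt11 had 18.2 and 18.2 CPM in the mT6 controls, 23.7 and 24.5 in the mT6 knockout and 31.7 and 28.4 in the mT6 libraries labelled SPDEF-OE. In mT69a it had 8.75 and 12.6, then 9.35 and 11.7, then 16.4 and 17.6 CPM. It rose by 0.50 against knockout (SE 0.13, adjusted p = 0.039) and by 0.70 against control (SE 0.13, adjusted p = 0.0048). The first of these calls was lost in 8 of 12 fits that left out a library, and leaving out the first mT69a knockout library gave the highest adjusted p (0.159). The 4 fits that kept it left out the second mT6 SPDEF-OE library, the second mT69a knockout library or an mT69a control. Galnt2 rose by 0.73 against control (SE 0.15, adjusted p = 0.011), with 39.2 and 48.2 CPM in control, 55.7 and 51.5 in knockout and 77.9 and 66.6 with the SPDEF-OE label in mT6, and 41.1 and 65.5, then 64.9 and 64.2, then 101.5 and 75.7 CPM in mT69a. That call was lost without the first mT69a SPDEF-OE library (adjusted p = 0.0520). Galnt3, known for glycosylating FGF23 as well as mucins, rose by 0.64 (SE 0.11, adjusted p = 0.0034), with 102 and 80.1, then 118 and 95.3, then 133 and 123 CPM in mT6 and 82.8 and 97.2, then 111 and 109, then 160.1 and 149 CPM in mT69a. The SPDEF-OE libraries were above the control and knockout of their line for both genes. Reads of Galnt2 could be divided with Gm20388, an annotated gene that overlaps it on the same strand.

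A pair of starting enzymes was present at a few counts. Galnt18 had 0 counts in all 8 control and knockout libraries, and 0.701 and 0.704 CPM in mT6 and 1.19 and 0.902 CPM in mT69a in those labelled SPDEF-OE. Summed counts were 12 and 30 there, at least 7.41-fold higher than knockout in mT6 and at least 10.8-fold in mT69a, taking 3 counts over the group as the floor. The averaged adjusted p was 0.0090 against knockout and 0.0048 against control, and the former became 0.0548 without the first mT69a SPDEF-OE library. Galnt6, a starting enzyme of secretory and breast epithelium, had 0.685 and 1.07 CPM in the mT6 controls, 1.33 and 1.53 in the mT6 knockout and 4.21 and 4.23 in the mT6 libraries labelled SPDEF-OE. In the mT69a controls it had 0.938 and 1.15 CPM (32 counts summed), in the mT69a knockout 0 counts in both libraries, and with the SPDEF-OE label 0.772 and 0.451 CPM (18 counts). It was at least 10.4-fold lower in the mT69a knockout than in control (adjusted p = 0.0018), and at least 6.46-fold higher with the SPDEF-OE label than in that knockout (adjusted p = 0.0084; 0.0778 without the first mT69a knockout library, lost also without the first SPDEF-OE one). The averaged fall in the knockout (adjusted p = 0.012) was lost without the first mT69a knockout library (0.0741), while the averaged rise against knockout had adjusted p = 0.0022. Fitted log2 values of these genes rest on groups at 0 and give no size of change. Galnt18 met the count filter only through the libraries labelled SPDEF-OE, so its adjusted p is not independent support.

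The remaining tested starting enzymes, Galnt1, Galnt4 and Galnt10, ran from 92.6 to 152, from 144 to 225 and from 12.03 to 32.8 CPM over the 12 libraries and passed in none of the 10 contrasts without the replicate block. With it Galnt4 (0.30, SE 0.08, adjusted p = 0.0179) and Galnt10 (0.63, SE 0.17, adjusted p = 0.037) rose against knockout on average, and Galnt1 and Galnt10 were higher in the mT69a than in the mT6 controls (adjusted p = 0.0319 and 0.0274). Galnt1 was also lower in the mT69a knockout with the block (-0.54, SE 0.11, adjusted p = 0.00435), and that change differed from the mT6 change (-0.76, adjusted p = 0.00576). Galnt1 was -0.55 (SE 0.15, adjusted p = 0.051; with the block 0.0043) in the mT69a knockout. It lies on chromosome 18, whose genes had a median log2 fold change of -0.49 in that comparison, and the part of this shift in its value was not tested. Poc1b, an annotated gene, overlaps Galnt4 on the same strand, so reads of Galnt4 could be divided with it.

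**Figure D3:**
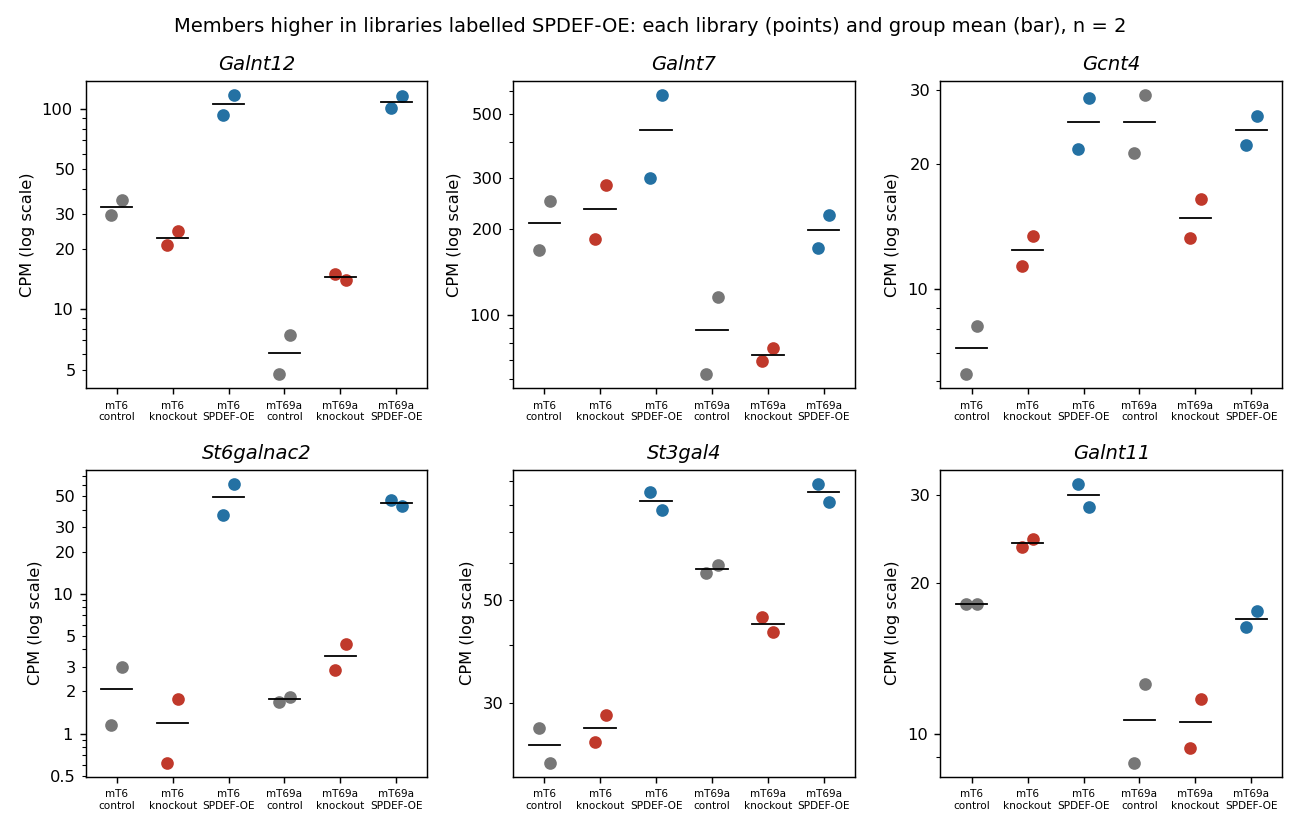
CPM on a log axis in each library (points) with group means (bars, n = 2) for 6 members that were higher in libraries labelled SPDEF-OE than in the knockout, averaged over the lines. For Galnt12 and St6galnac2 the 4 SPDEF-OE libraries lie above all 8 others, while for Gcnt4 the mT69a controls (21.2 and 29.2 CPM) reach the SPDEF-OE range and for Galnt11 the mT6 controls (18.2 CPM) exceed the mT69a SPDEF-OE libraries.

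In core formation, C1galt1 makes core 1 and was the most abundant member of its step. It had 225 and 188 CPM in the mT6 controls, 349 and 310 in the mT6 knockout and 311 and 310 in the mT6 libraries labelled SPDEF-OE. The mT69a values were 156 and 167, then 213 and 182, then 211 and 211 CPM. Both later groups lay above control in each line and overlapped each other in mT6 and mT69a. C1galt1 rose by 0.48 in the knockout (SE 0.09, adjusted p = 0.014) and by 0.49 in the SPDEF-OE libraries against control (SE 0.09, adjusted p = 0.0066), with 0.00 between the latter and the knockout (SE 0.09). Within lines it passed in the mT6 knockout (0.67, SE 0.13, adjusted p = 0.025; lost without either mT6 knockout, the second mT6 control or either mT69a SPDEF-OE library, up to 0.187). The averaged call in the knockout was lost without the first mT6 knockout, first mT69a control, first mT69a knockout or second mT6 control library (adjusted p up to 0.0739). Its chaperone C1galt1c1 (Cosmc), without which core 1 is not made, ran from 15.3 to 21.9 CPM and passed in no contrast.

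Gcnt3 forms core 2 and core 4 branches in mucus-secreting epithelia. It had 88.6 and 88.7 CPM in the mT6 controls, 72.2 and 84.7 in the mT6 knockout and 63.6 and 72.4 in the mT6 libraries labelled SPDEF-OE. In mT69a it had 157 and 195, then 79.0 and 78.7, then 188 and 202 CPM. The mT69a knockout libraries lay below the other mT69a libraries, and the SPDEF-OE libraries overlapped the controls there. Gcnt3 fell by 1.16 in the mT69a knockout (SE 0.14, adjusted p = 0.00060) and rose by 1.31 between that knockout and the SPDEF-OE libraries (SE 0.14, adjusted p = 0.00062). In mT6 the same contrasts gave -0.18 (adjusted p = 0.61) and -0.21 (adjusted p = 0.66). The averages were -0.67 (SE 0.10, adjusted p = 0.0031) and 0.55 (SE 0.10, adjusted p = 0.0069). The knockout effect differed between lines by -0.98 (SE 0.20, adjusted p = 0.014; lost without either mT69a knockout, the second mT69a control or the second mT6 knockout library, up to 0.0586).

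Gcnt4, another core 2 enzyme, had 6.25 and 8.14 CPM in the mT6 controls, 11.3 and 13.4 in the mT6 knockout and 21.6 and 28.8 in the mT6 libraries labelled SPDEF-OE. In mT69a it had 21.2 and 29.2, then 13.2 and 16.4, then 22.1 and 26.0 CPM. The libraries labelled SPDEF-OE were above the knockout in both lines. They were above control in mT6 and within the control range in mT69a. The averaged rise was 0.86 against knockout (SE 0.16, adjusted p = 0.0076) and 0.86 against control (SE 0.16, adjusted p = 0.0046). Its knockout effect was 0.77 (SE 0.23, adjusted p = 0.11; with the block 0.0022) in mT6 and -0.77 (SE 0.22, adjusted p = 0.060; with the block 0.00089) in mT69a. The difference between lines was -1.54 (SE 0.32, adjusted p = 0.016), lost without the first mT6 control, the second mT6 knockout, the first mT69a knockout or the second mT69a control library (up to 0.0741). Gcnt1, the main core 2 enzyme of leukocytes and many epithelia, ran from 33.5 to 187 CPM and passed in no contrast without the block. With it Gcnt1 was higher in the mT69a than in the mT6 controls (0.88, adjusted p = 0.03555).

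Averaged over the lines, no extension enzyme rose with the SPDEF-OE label against knockout without the replicate block, and B4galnt3 did with it. B3gnt3, which extends core 1, was the most abundant and ran from 168 to 238 CPM over all 12 libraries. It had 193 and 196 CPM in the mT6 controls, 219 and 221 in the mT6 knockout and 238 and 212 in the mT6 libraries labelled SPDEF-OE. The mT69a values were 188 and 192, then 173 and 168, then 205 and 194 CPM. It passed in no contrast, and its averaged log2 fold change against knockout was 0.13 (SE 0.08, adjusted p = 0.41). B4galt1, a general galactosyltransferase, ran from 65.6 to 97.8 CPM and did not pass either.

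B3gnt7, which lengthens sulfated lactosamine chains, moved in opposite directions in the knockouts of the lines. It had 3.05 and 4.96 CPM in the mT6 controls, 1.42 and 1.13 in the mT6 knockout and 0.584 and 0.470 in the mT6 libraries labelled SPDEF-OE. The mT69a libraries had 0.250 and 0.269, then 2.69 and 2.44, then 0.356 and 0.451 CPM. The groups do not overlap within a line. The knockout change was -1.67 in mT6 (SE 0.37, adjusted p = 0.037) and 3.27 in mT69a (SE 0.45, adjusted p = 0.0013), and the difference between lines was 4.94 (SE 0.58, adjusted p = 0.00094). The mT6 call was lost in 9 of 12 fits that left out a library (up to 0.281; kept without the first mT6 control or either mT6 SPDEF-OE library) and with DESeq2 (0.0557). B3gnt7 lies on chromosome 1, whose genes had a median of -0.28 in the mT6 knockout, and the part of this shift was not tested. Against knockout B3gnt7 fell by 1.96 with the SPDEF-OE label, averaged over the lines (SE 0.31, adjusted p = 0.0034), by 2.67 in mT69a (SE 0.43, adjusted p = 0.0058; 0.0911 without the first mT69a SPDEF-OE library) and was -1.25 in mT6 (adjusted p = 0.26). Only 9 and 11 counts lay behind the SPDEF-OE groups of mT6 and mT69a.

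B4galt4 and B4galnt3 were lower in the mT69a knockout and stayed low in the mT69a libraries labelled SPDEF-OE. B4galt4 adds galactose to N-acetylglucosamine, including its sulfated form. In mT69a control libraries B4galt4 stood at 38.8 and 50.4 CPM, in knockout ones at 5.27 and 5.31 and at 6.88 and 9.92 with the SPDEF-OE label. The fall in the mT69a knockout was 3.07 on the log2 scale (log2 fold change -3.07, SE 0.56, adjusted p = 0.010), and the change from there to the SPDEF-OE libraries was 0.66 (SE 0.56, adjusted p = 0.69). The call was lost without either mT69a knockout library or the second mT69a control (up to 0.0926). In mT6 the libraries split by number instead: those numbered 1 had 20.4, 20.6 and 22.1 CPM and those numbered 2 had 45.0, 48.4 and 46.0 CPM in control, knockout and SPDEF-OE. The mT6 change was 0.08 (SE 0.49), and the difference between lines was -3.15 (SE 0.74, adjusted p = 0.039). That difference was lost in 8 of 12 such fits (leaving out the first mT69a knockout library gave the highest, 0.131; kept without the second mT6 control, the first mT6 knockout or either mT6 SPDEF-OE library). With the replicate block its adjusted p was 0.0010 and the averaged knockout change of -1.48 also passed (0.00136, against 0.053 without it).

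B4galnt3 makes LacdiNAc, a GalNAc-terminated chain. Its mT69a libraries had 4.94 and 7.004 CPM (control), 1.61 and 1.48 (knockout) and 1.07 and 1.26 (SPDEF-OE). In mT6 it had 2.29 and 4.93, then 4.16 and 5.12, then 16.2 and 17.7 CPM. It fell by 1.94 in the mT69a knockout (SE 0.36, adjusted p = 0.0073) and rose by 1.86 in mT6 between knockout and SPDEF-OE (SE 0.32, adjusted p = 0.013), where mT69a had -0.43 (adjusted p = 0.73). The averaged change against knockout was 0.72 (SE 0.26, adjusted p = 0.15; with the block 0.0384), and that in the knockout was -0.80 (SE 0.24, adjusted p = 0.089; with the block 0.0158). The mT69a call was lost without either knockout library or the second control of that line (up to 0.0670), and the mT6 call without either mT6 knockout or the second mT6 SPDEF-OE library (up to 0.0968). The knockout effect differed between lines by -2.26 (SE 0.48, adjusted p = 0.019; lost without either mT69a knockout, the second mT69a control or the second mT6 knockout library, up to 0.0790). For the SPDEF-OE effect the difference of -2.29 had adjusted p = 0.38, and 0.0367 with the block.

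**Figure D4:**
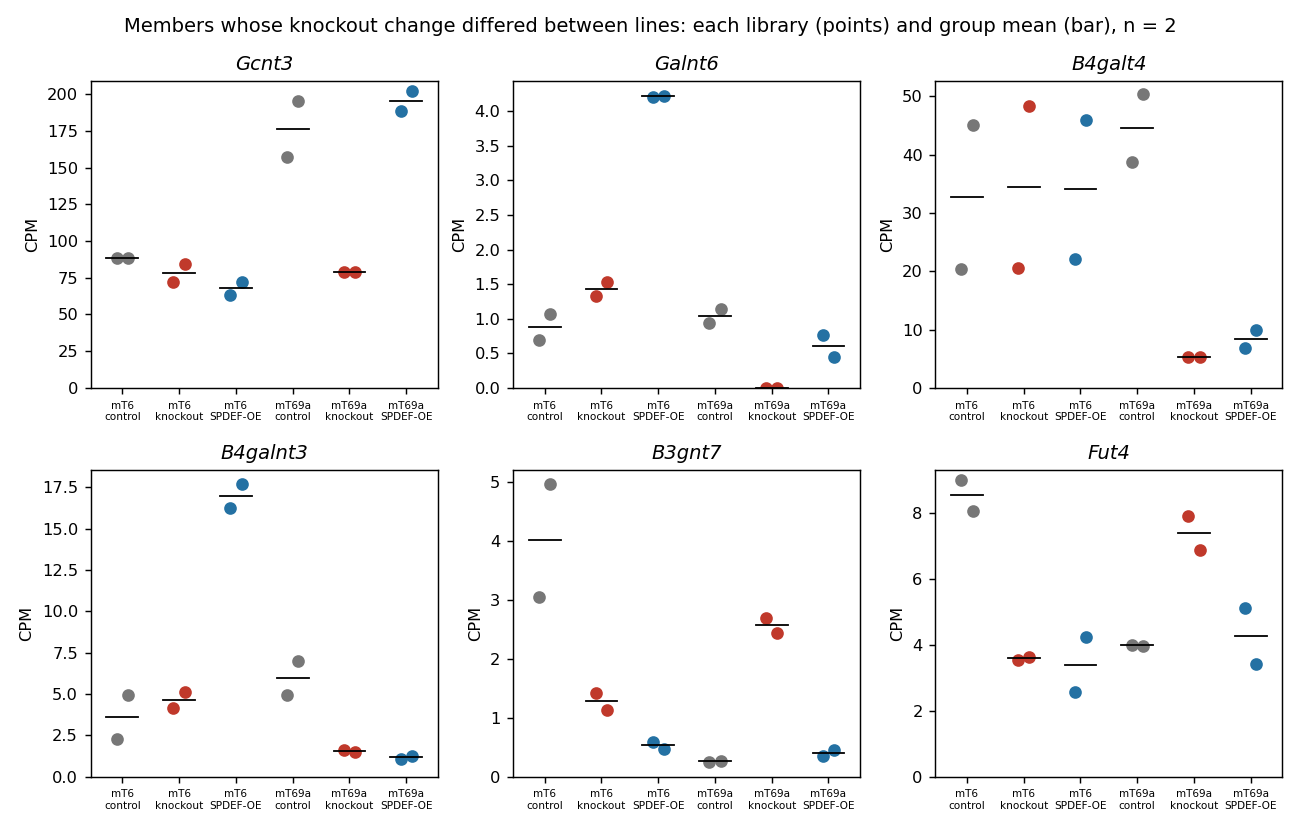
CPM on linear axes from 0 in each library (points) with group means (bars, n = 2) for 6 of the 8 members whose knockout change differed between lines. Gcnt3 overlaps the mT69a controls (157 and 195 CPM) in the mT69a SPDEF-OE libraries (188 and 202 CPM), B4galt4 and B4galnt3 stay low there, and the knockout libraries of B3gnt7 and Fut4 lie below control in mT6 and above it in mT69a.

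In capping, the sialyltransferases showed the main rises. St6galnac2 adds sialic acid to the GalNAc at the base of the chain. St6galnac2 had 1.14 and 3.0 CPM in the mT6 controls, 0.619 and 1.77 in the mT6 knockout and 36.3 and 61.3 in the mT6 libraries labelled SPDEF-OE. The mT69a libraries had 1.69 and 1.82, then 2.85 and 4.35, then 46.8 and 42.4 CPM. All 4 SPDEF-OE libraries lay above all 8 others, and the mT69a values lay within the range of the mT6 ones. The rise against knockout was 4.44 (SE 0.33, adjusted p = 5.1e-05), with 5.22 in mT6 (SE 0.50, adjusted p = 0.00073) and 3.66 in mT69a (SE 0.44, adjusted p = 0.0017), and 4.56 against control (SE 0.33, adjusted p = 2.5e-05). Summed counts went from 43 to 833 in mT6 (35.9-fold, 95% counting interval 26.4 to 49.96) and from 103 to 1259 in mT69a (13.2-fold, 10.8 to 16.3). A second gene identifier with this symbol shares exons with it, and its 85 counts beside 2391 leave the division of reads uncertain. That identifier was higher against knockout as well (4.39, SE 0.64, adjusted p = 0.0019). It had 0 to 4 counts in each control and knockout library and 11 to 24 in those labelled SPDEF-OE. It met the count filter only through the latter, so its adjusted p is not independent support. On the opposite strand 1810032O08Rik, with 1043 counts in all, overlaps exons of St6galnac2, and the strand setting of the counting is not given in the sources used here. The coding transcript St6galnac2-201 had 9.80 and 14.7 TPM in the mT6 and 13.9 and 9.63 TPM in the mT69a libraries labelled SPDEF-OE, beside 0.03 to 0.91 TPM in the others.

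St3gal4 adds sialic acid to lactosamine-type chains and takes part in making sialyl-Lewis x. It had 26.4 and 22.3 CPM in the mT6 controls, 24.8 and 28.2 in the mT6 knockout and 84.95 and 78.1 in the mT6 libraries labelled SPDEF-OE. The mT69a values were 57.1 and 59.2, then 45.9 and 42.6, then 88.7 and 81.2 CPM. The libraries labelled SPDEF-OE of both lines lay between 78.1 and 88.7 CPM, above all controls and knockouts. The rise against knockout was 1.28 (SE 0.09, adjusted p = 2.7e-05), with 1.62 in mT6 (SE 0.13, adjusted p = 0.00021) and 0.94 in mT69a (SE 0.13, adjusted p = 0.0022). Against control it was 1.15 (SE 0.09, adjusted p = 2.5e-05). Reads on the opposite strand belong to 4930581F22Rik, which overlaps the gene, and the strand setting of the counting is not given in the sources used here.

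St3gal4 has several annotated starts on chromosome 9. Its main transcript, St3gal4-201, starts at 35116873 on the minus strand, while St3gal4-202 and St3gal4-204 start farther upstream at 35119183 and 35119268. The main transcript had 13.3 and 13.2 TPM in the mT6 knockout and 39.1 and 35.9 with the SPDEF-OE label, and 29.4 and 20.5 against 45.2 and 33.8 TPM in mT69a. The upstream-start transcripts together had 3.45 and 2.18 TPM in the mT6 knockout and 19.4 and 14.8 with the SPDEF-OE label, and 5.59 and 3.11 against 19.5 and 11.5 TPM in mT69a. Their share of St3gal4 was 7.81% to 18.6% in the 8 control and knockout libraries and 24.8% to 31.3% in the 4 labelled SPDEF-OE. The ranges do not overlap. Transcript levels are estimates that divide shared reads, and no test was made of them.

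**Figure D5:**
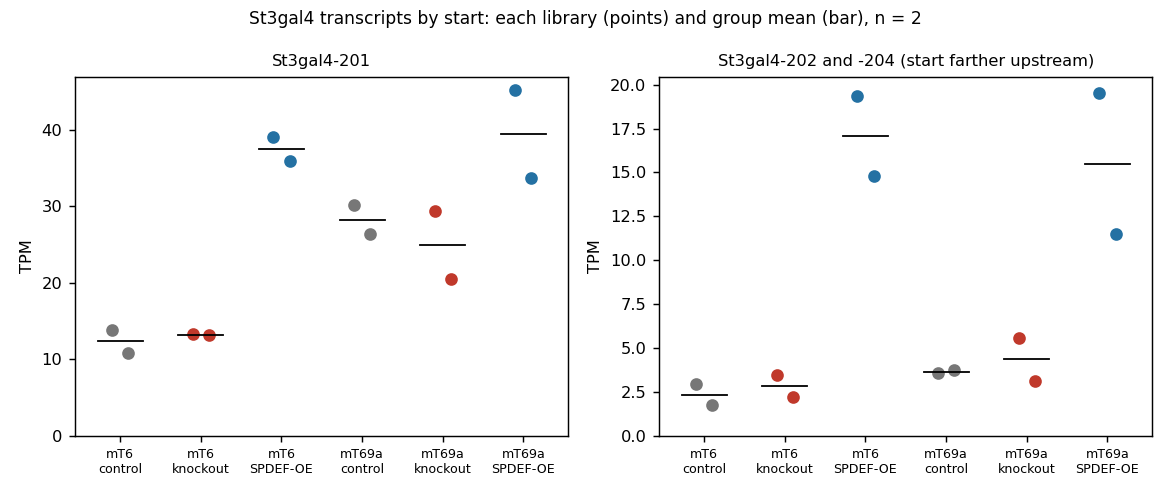
TPM of the main St3gal4 transcript (left) and of the transcripts that start farther upstream (right) in each library (points) with group means (bars, n = 2), on linear axes from 0. The libraries labelled SPDEF-OE are highest in both panels, and on the right they lie at 11.5 to 19.5 TPM while all others are at or below 5.59 TPM.

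St3gal6, a sialyltransferase of lactosamine chains and the most abundant member, had 156 and 153 CPM in the mT6 controls, 162 and 176 in the mT6 knockout and 191 and 189 in the mT6 libraries labelled SPDEF-OE. The mT69a libraries had 184 and 197, then 262 and 269, then 327 and 357 CPM. The order control, knockout, SPDEF-OE held in both lines with no overlap. It rose by 0.57 with the SPDEF-OE label against control (SE 0.08, adjusted p = 0.00079). In the knockout it rose by 0.30 on average (SE 0.08, adjusted p = 0.049) and by 0.48 in mT69a (SE 0.11, adjusted p = 0.022). The averaged call was lost in each of the 12 fits that left out a library (up to 0.153) and without the filter on low counts (0.231). The mT69a call was lost in 5, without any 1 of the mT69a controls and knockouts or the second mT69a SPDEF-OE library (up to 0.132), and without the filter (0.113). Against knockout the SPDEF-OE libraries were 0.27 higher (SE 0.08, adjusted p = 0.065; with the block 0.0103). Dcbld2 overlaps St3gal6 on the opposite strand.

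St3gal1 and St3gal2, which sialylate core 1, passed against control with the SPDEF-OE label and, without the block, in no other contrast. With it both rose in the knockout on average (0.65 and 0.79, adjusted p = 0.0433 and 0.0477). St3gal1 had 16.5 and 9.21 CPM in the mT6 controls, 39.5 and 23.8 in the mT6 knockout and 52.1 and 25.8 in the mT6 libraries labelled SPDEF-OE. The mT69a libraries had 15.9 and 16.3, then 20.2 and 12.9, then 23.7 and 24.1 CPM. The averaged rise was 1.09 (SE 0.28, adjusted p = 0.029), lost in 6 of 12 fits that left out a library (either mT69a control or SPDEF-OE library, the first mT6 SPDEF-OE or the second mT6 control; up to 0.0942). With the block St3gal1 also passed in the knockout (0.65, SE 0.18, adjusted p = 0.0433). St3gal2 had 5.56 and 2.18 CPM in the mT6 controls, 5.31 and 3.10 in the mT6 knockout and 11.9 and 5.40 in the mT6 libraries labelled SPDEF-OE. For mT69a the values were 1.25 and 1.28, then 3.28 and 3.39, then 4.15 and 2.26 CPM. Its averaged rise was 1.28 (SE 0.38, adjusted p = 0.049), lost in 10 of 12 such fits (up to 0.206) and kept without the first mT6 control or the second mT6 SPDEF-OE library. With the block it also passed in the knockout (0.79, adjusted p = 0.0477).

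St6gal1, which sialylates lactosamine and mainly N-glycans, was near the counting floor outside the SPDEF-OE label. It had 0.229 and 0.0714 CPM in the mT6 controls, 0 and 0.0984 in the mT6 knockout and 0.701 and 1.06 in the mT6 libraries labelled SPDEF-OE. For mT69a the values were 0 counts in both controls, 0.107 and 0.0870 CPM in the knockout and 1.07 and 2.26 with the SPDEF-OE label. Summed counts went from 2 to 15 between knockout and SPDEF-OE in mT6 (ratio 13.9, 95% counting interval 3.23 to 125) and from 3 to 43 in mT69a (15.4, 4.94 to 77.8). The averaged adjusted p was 0.0079 against knockout and 0.0027 against control. St6gal1 met the count filter only through the libraries labelled SPDEF-OE, so these values are not independent support. In mT69a the adjusted p against knockout was 0.040, lost without any 1 of the 4 mT69a knockout and SPDEF-OE libraries or either mT6 SPDEF-OE library (up to 0.260).

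Fut4, which makes Lewis x, had 8.99 and 8.07 CPM in the mT6 controls, 3.54 and 3.64 in the mT6 knockout and 2.57 and 4.23 in the mT6 libraries labelled SPDEF-OE. For mT69a the values were 4.001 and 3.97, then 7.90 and 6.87, then 5.10 and 3.43 CPM. The mT6 knockout lay below its controls and the mT69a knockout above. Its change was -1.24 in mT6 (SE 0.26, adjusted p = 0.032; lost in 8 of 12 fits, those without a control or knockout library, up to 0.175) and 0.89 in mT69a (SE 0.26, adjusted p = 0.065; with the block 0.0213). The difference between lines was 2.13 (SE 0.37, adjusted p = 0.0069). Fut2 ran from 88.9 to 204 CPM and passed in no contrast without the block. With it Fut2 was lower in the knockout (-0.46, SE 0.08, adjusted p = 0.00208) and higher in SPDEF-OE against knockout (0.47, SE 0.08, adjusted p = 0.00130).

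Chst4, a sulfotransferase that makes sulfated L-selectin ligands, fell against control with the SPDEF-OE label (log2 fold change -1.15, SE 0.25, adjusted p = 0.011; 0.0639 without the first mT69a SPDEF-OE library). Among capping members Fut4 was also lower there with the block (-0.60, SE 0.18, adjusted p = 0.0272; 0.061 without it). Chst4 had 13.7 and 7.82 CPM in the mT6 controls, 9.91 and 7.43 in the mT6 knockout and 9.11 and 8.10 in the mT6 libraries labelled SPDEF-OE. Its mT69a levels were 2.75 and 2.16, then 1.88 and 2.52, then 0.593 and 0.631 CPM. The mT6 groups overlap, and the mT69a SPDEF-OE libraries lie below all others of that line. Against knockout it fell by 1.82 in mT69a (SE 0.40, adjusted p = 0.031), a call lost without any 1 of the 4 libraries compared (up to 0.244).

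The lines themselves differed in their controls. Between the controls 3 members were higher and 6 lower in mT69a than in mT6, beside 13.4% of all genes higher and 14.7% lower (28.2% in all), a share close to that of the members. With the block 8 were higher and 9 lower (41.8% of all genes called), adding Galnt1, Galnt10, Gcnt1, B4galnt3 and St3gal6 to those higher and C1galt1, St3gal2 and Fut2 to those lower (adjusted p from 0.0055 to 0.03555). St3gal4 (1.26, SE 0.13), Gcnt3 (0.99, SE 0.14) and Gcnt4 (1.79, SE 0.23) were higher in mT69a. Galnt12 (-2.42, SE 0.22), B3gnt7 (-3.92, SE 0.44), Chst4 (-2.11, SE 0.31), Galnt7 (-1.24, SE 0.39), Galnt11 (-0.77, SE 0.18) and Fut4 (-1.09, SE 0.26) were lower. Calls were lost for Galnt7 in 6 fits (up to 0.244 without the first mT69a control), for Galnt11 in 1 (0.0919, the same library) and for Fut4 in 3 (without either mT69a control or the first mT6 control, up to 0.0702).

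The enzymes need activated sugars, and 24 genes of sugar donor synthesis and Golgi transport were read beside them. This list too was chosen with earlier results of these data known, so its shares are descriptions. Against knockout, 7 of 24 were higher and none lower with the SPDEF-OE label, beside 4.46% of all genes higher and 3.32% lower. The 5 with the smallest adjusted p were Tsta3 (1.01, SE 0.09) and Gmds (0.77, SE 0.08), which make GDP-fucose, Gnpnat1 (1.001, SE 0.10) and Gfpt1 (1.09, SE 0.13), which make UDP-N-acetylglucosamine, and Gne (1.62, SE 0.18), the first enzyme of sialic acid synthesis. Their adjusted p ran from 7.53e-05 to 0.000485. Gne had 7.61 and 12.8 CPM in the mT6 knockout and 28.4 and 31.9 with the SPDEF-OE label, and 9.68 and 9.92 against 26.6 and 36.8 CPM in mT69a. In the knockout Gmds fell by 0.68 (SE 0.08, adjusted p = 0.0011), 1 of 24, and none rose, beside 2.3% of all genes lower and 3.3% higher. Against control 4 of 24 were higher, Gnpnat1, Tsta3, Gfpt1 and Gne, and none lower, beside 8.04% and 6.41% of all genes.

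Of 39 other glycan transferases, also listed with earlier results of these data known, 21 were tested. Against knockout 4 of 21 were higher with the SPDEF-OE label and none lower, beside 4.46% and 3.32% of all genes: Galntl6, a further member of the GALNT family (3.69, SE 0.38, adjusted p = 0.00023), B3gnt2, a lactosamine extender (0.67, SE 0.11, adjusted p = 0.0037), B4galnt2, which makes the Sda antigen (1.76, SE 0.37, adjusted p = 0.021), and Fut1 (1.13, SE 0.29, adjusted p = 0.038). In the knockout Fut9 (0.75) and St3gal3 (0.65) were higher and Galntl6 (-2.35) lower, beside 3.3% and 2.3% of all genes. Galntl6 had 10.4 and 12.04 CPM in the mT6 controls, 6.02 and 8.12 in the mT6 knockout and 20.3 and 38.5 in the mT6 libraries labelled SPDEF-OE. Its mT69a levels were 1.81 and 2.76, then 0.215 and 0, then 4.51 and 6.86 CPM, so its libraries followed the same order in both lines.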

How the data were processed

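FastQC 0.11.8, STAR 2.5.2b and RSEM 1.3.0 were used on build GRCm38.p6, per the submitters' processing notes; libraries were made with a stranded total RNA kit, per the labels' protocols. Expected counts and TPM per gene and transcript were deposited, per the file headers; expected counts were rounded to whole numbers (8.08% to 11.3% per library were not whole within 0.005). Of 53715 identifiers, 53620 had a symbol in GENCODE M21. Members and lists were chosen with earlier results of these data known. All 36 members are accounted for; values are given for members called in an average or a difference between lines and for the most abundant of each step.

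The fit used edgeR 4.0.16 (TMM, factors 0.839 to 1.20, filterByExpr by group, robust quasi-likelihood, 6 group means, 6 residual degrees of freedom) over 14473 genes in R 4.3.3, two-sided, adjusted by Benjamini-Hochberg. CPM are scaled by TMM. Counts of 14473 genes were simulated for SPDEF-OE against knockout, with changes set in a sample of genes above a minimum mean level. The fit recovered 94.0% of 2-fold and 99.0% of 4-fold changes. These changes were equal in both lines, and no effect of the library number was simulated. The spread of each simulated gene followed the trend with level, so a gene's own spread above that trend was not simulated. Recovery was not measured for members at few counts or for changes in a single line. Alternatives were a replicate block, DESeq2's size factors, no filter, the DESeq2 1.42.0 test and 12 fits leaving out a library. Same-numbered libraries deviated together (r 0.205 to 0.531 in 15 pairs of groups). The main fit had no term for the number and so left this pairing out. Only the replicate block took it into account. Folds against groups at 0 use a floor of 3 counts over the group; intervals are 95% exact and cover counting error only. Promoter windows are from RefSeq (GRCm38.p6). Figures used matplotlib 3.10.9 in Python 3.11.15.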

Additional observations from a re-analysis of the deposited data

Results flagged for a closer look

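The knockout effect differed between the lines, by edgeR's test of the difference itself, for 8 of 29 members, and each is listed for that reason. Values are the mT69a effect minus the mT6 effect on the log2 scale. The extension enzymes B3gnt7 (4.94), B4galt4 (-3.15) and B4galnt3 (-2.26) are 3 of the 5 in their step. The branching enzymes Gcnt3 (-0.98) and Gcnt4 (-1.54) had a more negative change from control to knockout in mT69a than in mT6. The starting enzymes Galnt12 (1.76) and Galnt6 (-7.63, a fitted value that rests on a group at 0 counts and sets no size) went opposite ways. Fut4 (2.13) was the capping member. With 1 knockout clone named in each line, line and clone cannot be told apart here. Without the replicate block, no member met this criterion for the change between knockout and the libraries labelled SPDEF-OE. With the block, Gcnt3 and B4galnt3 did.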

How the results depend on the processing

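Of 71 calls of members in the 10 contrasts, the replicate block and DESeq2's size factors lost none, omitting the filter on low counts lost 2 (both St3gal6), the DESeq2 test lost 2 (B3gnt7 in the mT6 knockout, Galnt18 in mT69a, adjusted p = 0.0741) and leaving out a library lost 31 at least once. None reversed. The block added the calls named with the results and changed no other call. Counts of called members under the block, for a main count of 4, 11, 3, 7, 5, 9, 0 and 9, were 10 (knockout, average), 18 (SPDEF-OE against knockout, average), 6 (knockout, mT6), 13 (knockout, mT69a), 9 (SPDEF-OE against knockout, mT6), 15 (the same, mT69a), 2 (difference of that effect between lines) and 17 (line controls). Without the filter they were 9, 5, 14, 9, 14 and 4 for the knockout on average, in mT6 and in mT69a, SPDEF-OE against knockout in mT6 and in mT69a, and its difference. The DESeq2 test gave 7 for the knockout on average and 1 for the difference of the SPDEF-OE effect. With each library left out, counts ranged from 1 to 5 (knockout, average), 8 to 12 (SPDEF-OE against knockout, average), 10 to 16 (against control), 0 to 3 (knockout, mT6), 4 to 11 (knockout, mT69a), 3 to 5 (SPDEF-OE against knockout, mT6), 4 to 11 (the same, mT69a), 4 to 9 (difference of the knockout effect), 0 to 1 (difference of the SPDEF-OE effect) and 6 to 12 (line controls). A group left with 1 library is assumed to vary like the others. The cause of these changes was not tested. Members under about 1 CPM rest on few counts, and 2 libraries a group limit every test.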

Other observations

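RNA of the genes for mucins, the proteins that carry these chains, did not move as 1 group. Of 12 mucins, also listed with earlier results of these data known, 9 were tested. Against knockout, with the SPDEF-OE label, Muc1, a membrane mucin of ductal cells, was higher (0.68, SE 0.09, edgeR adjusted p = 0.0013), while the membrane mucins Muc20 (-1.29, SE 0.18, adjusted p = 0.0017) and Muc4 (-1.93, SE 0.38, adjusted p = 0.015) were lower, beside 4.46% and 3.32% of all genes. Muc1 had 296 and 247 CPM in the mT6 knockout and 414 and 436 with the SPDEF-OE label, and 169 and 149 against 277 and 245 CPM in mT69a. In the knockout Muc20 (1.06) and Muc13 (0.91) were higher on average, beside 3.3% of all genes. Muc20 had 14.5 and 19.1 CPM in the mT6 controls and 4.87 and 5.46 in the knockout, but 0.438 and 0.673 and then 8.06 and 7.74 CPM in mT69a. Between the line controls 6 of 9 mucins were lower in mT69a and 1 was higher, beside 28.2% of all genes called.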
